A study of Homo sapiens with 22 samples.

Results

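The 4 human tensin genes TNS1, TNS2, TNS3 and TNS4 were followed through peak lists of chromatin immunoprecipitation sequencing (ChIP-seq) from TC-32, an established Ewing sarcoma cell line. All 4 were taken, of 20005 protein-coding genes in GENCODE release 44, and every listed peak over the gene and 50 kb to each side was read. The 2 arms are cells reverse transfected with 20 nM siRNA, either a negative control (siNEG) or one directed at FLI1 (siFLI1), whose sequence is part of the fusion EWSR1::FLI1. Cells of both arms were crosslinked with 1% formaldehyde for 10 min and carry the same fusion background, and no time after transfection is given. The 14 lists comprise 2 libraries per arm for the transcription factor ETS1, for H3K27ac (histone acetylation of active promoters and enhancers) and for H3K4me3 (histone methylation of promoters), and 1 library per arm for H3K27ac with an antibody labelled ab4729. A further 8 samples are input libraries, which were not analysed here. All libraries come from a single cell line, the labels do not say whether replicates were separate transfections, and p-values and SDs therefore measure the spread between these libraries, which may be technical.

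Tensins are adapter proteins of cell adhesions. They bind the tails of beta integrins through a C-terminal phosphotyrosine-binding domain and signalling proteins through an SH2 domain. TNS1, TNS2 and TNS3 carry a long N-terminal part, which in TNS1 and TNS3 contacts actin, whereas TNS4, also called CTEN, lacks it. ETS1 and FLI1 belong to the ETS family, whose members recognise DNA around a GGAA core, and EWSR1::FLI1 is known for acting on runs of GGAA repeats in Ewing sarcoma cells. TNS3 is the gene the study proposes as an ETS1 target, so the comparison with its 3 paralogues asks whether marks at TNS3 differed between arms in another way than those at the rest of the family.

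The genes differ in size and surroundings. On hg38, TNS3 (ENSG00000136205.18) lies at chr7:47275154-47582558 on the minus strand and TNS1 (ENSG00000079308.21) at chr2:217799588-218033982 on the minus strand. TNS2 (ENSG00000111077.18) lies at chr12:53046969-53064379 on the plus strand and TNS4 (ENSG00000131746.13) at chr17:40475828-40501623 on the minus strand. With the flanks, the windows measured 407.405 kb for TNS3, 334.395 kb for TNS1, 117.411 kb for TNS2 and 125.796 kb for TNS4. No other protein-coding gene reaches into the TNS3 window. The annotated genes LINC01447 and ENSG00000286315 do, so peaks in that window need not belong to TNS3. RUFY4 reaches into the window of TNS1. The window of TNS2 holds EIF4B, SPRYD3, IGFBP6 and SOAT2, and that of TNS4 holds IGFBP4, so peaks there can belong to those genes.

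Sequences are shown for the tensin promoters and regions on which the results turn. In the promoters and in the ETS1 region of TNS4, capitals mark each GGAA core on either strand (GGAA or TTCC). Promoters are RefSeq entries of 250 bases before and 50 bases after a start, which 3 of the 4 tensins had (11 entries in all).
TNS3 internal promoter, chr7:47537423-47537722, GRCh38.p14, minus strand: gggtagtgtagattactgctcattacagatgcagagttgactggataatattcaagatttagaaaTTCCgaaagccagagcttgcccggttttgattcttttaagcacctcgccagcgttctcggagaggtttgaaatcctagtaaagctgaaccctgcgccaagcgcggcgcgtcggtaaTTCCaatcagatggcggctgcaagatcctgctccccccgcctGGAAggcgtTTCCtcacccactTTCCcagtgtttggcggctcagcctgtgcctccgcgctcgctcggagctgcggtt
TNS3 principal promoter, chr7:47582062-47582361, GRCh38.p14, minus strand: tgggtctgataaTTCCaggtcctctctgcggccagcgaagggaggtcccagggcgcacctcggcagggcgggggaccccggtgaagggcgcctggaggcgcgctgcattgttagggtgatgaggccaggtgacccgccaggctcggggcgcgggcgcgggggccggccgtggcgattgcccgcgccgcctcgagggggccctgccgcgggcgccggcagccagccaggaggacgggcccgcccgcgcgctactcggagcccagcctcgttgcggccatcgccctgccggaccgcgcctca
TNS1 promoter, chr2:218010226-218010525, GRCh38.p14, minus strand: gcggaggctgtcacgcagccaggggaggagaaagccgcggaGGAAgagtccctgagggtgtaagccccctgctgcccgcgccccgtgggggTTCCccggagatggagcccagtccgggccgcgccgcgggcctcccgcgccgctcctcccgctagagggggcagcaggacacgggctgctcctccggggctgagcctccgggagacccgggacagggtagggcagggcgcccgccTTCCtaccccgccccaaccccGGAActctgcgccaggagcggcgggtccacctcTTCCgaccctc
TNS2 promoter, chr12:53046741-53047040, GRCh38.p14, plus strand: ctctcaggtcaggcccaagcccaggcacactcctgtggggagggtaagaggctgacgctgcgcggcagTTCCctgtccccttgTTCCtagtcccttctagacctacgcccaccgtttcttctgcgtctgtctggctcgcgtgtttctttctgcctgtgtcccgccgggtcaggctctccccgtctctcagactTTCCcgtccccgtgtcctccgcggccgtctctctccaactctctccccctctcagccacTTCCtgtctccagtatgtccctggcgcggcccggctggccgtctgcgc
TNS4 intronic ETS1 region, chr17:40485978-40486162, hg38, plus strand: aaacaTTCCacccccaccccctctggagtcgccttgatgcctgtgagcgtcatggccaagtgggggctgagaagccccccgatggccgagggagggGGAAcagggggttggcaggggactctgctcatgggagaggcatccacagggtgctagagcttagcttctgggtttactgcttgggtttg
The internal promoter of TNS3 is shown because the ETS1 peak of both siFLI1 lists lies on it. Counted from its first base, the ETS1 region covers bases 150 to 300, both summits fall on base 286, and 4 of its 5 cores, the nearest of them at bases 246 to 249, lie inside the region. The principal promoter of TNS3 holds 1 core. The promoters of TNS1 (5 cores) and TNS2 (4 cores) are entries that lay wholly under H3K4me3 peaks in all 4 lists. Most promoters hold a core: 95.5% of 35116 RefSeq promoters of this length contain GGAA on either strand.

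ETS1 was listed at 1 place in the window of TNS3, 1 in that of TNS2 and 1 in that of TNS4, in both siFLI1 lists and in neither siNEG list, and at none in that of TNS1. Only the region of TNS3 lay at a start of the tensin itself. Across the genome, 44% of 2706 merged ETS1 regions were gained in this sense (in both siFLI1 lists and neither siNEG list), and 0.0739% were lost, where the siFLI1 lists held 1633 and 2635 peaks and the siNEG lists 302 and 208. The share of protein-coding genes with a gained ETS1 region was 15.6% for the same kind of window and 6.01% within 1 kb of a start. The siFLI1 ETS1 lists agreed more closely than counting noise allows for separate libraries (chi-square per degree of freedom 0.412 over 493 regions, lower-tail p = 5.3e-34), the value was also low over the 28 regions with at least 100 tags (0.526, p = 0.021), and the peak names of replicate 1 carry the number of replicate 2. They were therefore counted as 1 sample, and no ETS1 difference here has a replicate check in the siFLI1 arm. For the siNEG ETS1 pair this chi-square ratio was 0.82 in 79 regions (lower-tail p = 0.13) and 0.578 in the 15 regions with at least 100 tags (lower-tail p = 0.12), so at the higher minimum the ETS1 pairs of the arms had similar ratios. The siFLI1 H3K27ac pair was also slightly closer than counting noise, at a chi-square ratio of 0.917 in 4583 regions (lower-tail p = 2.2e-05). Over its 1529 regions with at least 100 tags the chi-square ratio was 1.00 (lower-tail p = 0.53), and it was kept as 2 libraries. The siNEG H3K27ac pair gave 1.13 over 4113 regions.

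The ETS1 region of TNS3 (chr7:47537268-47537573) covers the start of the transcript TNS3-212, which lies inside the gene, 44.8 kb downstream of its principal start. Its fold enrichment over local background, the authors' value per peak, was 5.65 and 7.14 in siFLI1 replicates 1 and 2, above 34.4% and 56.4% of the peaks in their lists. Summit heights worked back from the deposited values were 21 and 20 tags over backgrounds of 2.89 and 1.94 tags. No ETS1 peak was listed in the 2 siNEG libraries anywhere in the window. When each list was shortened to its 208 strongest peaks, the length of the shortest siNEG list, the region of TNS3 was no longer listed in both siFLI1 lists and the count fell from 1 to 0.

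The ETS1 region of TNS4 (chr17:40485886-40486162) is intronic and lies 5011 bp from the nearest start of the gene. Its fold enrichment was 5.96 and 9.19, with summit heights of 20 and 22 tags. The region assigned to TNS2 by the window (chr12:53079182-53079547) lies outside TNS2, across the start of SPRYD3, with 5.17 and 5.65 and heights of 19 and 14 tags. All 3 regions hold GGAA cores, with 1 core within 50 bp of each summit, and none holds the longer CCGGAA on either strand. Among the 1523 ETS1 regions that both siFLI1 lists held, 64.9% had a GGAA within 50 bp of the replicate 1 summit and 10.4% had a CCGGAA, which contains a GGAA.

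H3K27ac covered more of the TNS3 locus in siFLI1 cells than in siNEG cells. Listed peaks covered 4.94% and 3.50% of the TNS3 window in siNEG replicates 1 and 2, and 15.8% and 17.7% in siFLI1 replicates 1 and 2. The siFLI1 libraries lay far above the siNEG libraries, and the arms did not overlap. The mean was 4.22% ± 1.02 in siNEG and 16.8% ± 1.34 in siFLI1 (SD, n = 2 each), a difference of 12.5 percentage points and a ratio of 3.97, where the pooled SD within arms was 1.19. The exact two-sided permutation test gave p = 0.33, the smallest value that 2 libraries against 2 allow. Whether more cells carried the mark or each cell carried more of it cannot be told apart in such lists.

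The paralogues differed among themselves. TNS4 went from 20.2% and 21.4% to 34.6% and 30.7%, a difference of 11.8 percentage points without overlap (exact permutation p = 0.33, n = 2 each). In TNS2 the window went from 14.1% and 15.1% to 20.3% and 18.0%, a difference of 4.57 (exact permutation p = 0.33, n = 2 each), but within the gene body the values were 29.3% and 21.6% against 22.9% and 23.98%, which overlap. TNS1 gave 2.86% and 2.17% against 2.71% and 2.45%, which also overlap (difference 0.07, exact permutation p = 1.0, n = 2 each). Thus, with 50 kb flanks, the arms separated in the windows of TNS2, TNS3 and TNS4 and not in that of TNS1. With 100 kb flanks the TNS1 mean went from 2.13% to 2.57% (exact permutation p = 0.33, n = 2 each), so the result for TNS1 depended on the flank.

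**Figure D1:**
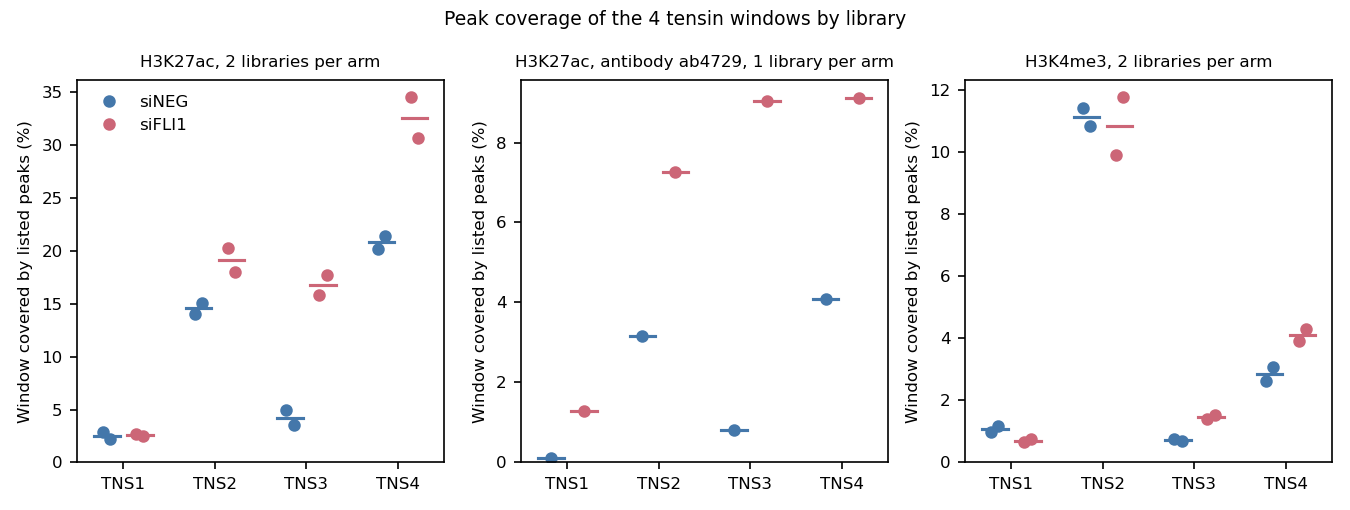
Percent of each tensin window (gene and 50 kb to each side, y axis) covered by listed peaks in siNEG (blue) and siFLI1 (red) libraries. Each point is a library and each bar the mean of an arm, and the 3 panels have different y scales. In the left panel the siFLI1 points of TNS3, at 15.8% and 17.7%, lie above its siNEG points at 4.94% and 3.50%, while the points of TNS1 overlap.

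The difference at TNS3 was set against each paralogue within each library. The TNS3 value minus the TNS1 value was 12.5 percentage points higher in siFLI1 (pooled SD 1.14, exact permutation p = 0.33, n = 2 each). Against TNS2 the same difference was 7.96 higher (pooled SD 2.45, exact permutation p = 0.33, n = 2 each). Against TNS4 it was 0.72 higher, the arms overlapped, and its pooled SD was 3.19 (exact permutation p = 1.0, n = 2 each). TNS3 therefore differed from TNS1 and TNS2 by more than the spread between libraries, and from TNS4 it did not in percentage points. The sign against TNS4 depended on single libraries: it was -2.17 without siFLI1 replicate 2 and -0.62 without siNEG replicate 2. Over the gene bodies alone it was -7.77 percentage points (exact permutation p = 0.33, n = 2 each).

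Over all 16912 protein-coding genes with a listed H3K27ac peak, coverage was higher in both siFLI1 libraries than in both siNEG libraries for 49.9% and lower for 15.6%, so a higher value alone does not set a tensin apart. The median difference was 0.47 percentage points, with quartiles of -0.11 and 1.75. TNS3 ranked 31 and TNS4 ranked 39 from the top of these differences, TNS2 ranked 1168 and TNS1 ranked 11431. A ratio of at least 3 without overlap, which TNS3 reached, occurred in 6.25% of genes, and a ratio of at least 2 in 12.4%. The siNEG level of TNS3, 4.22%, compares with a median of 3.21% over these genes, whereas that of TNS4 was 20.8% and its ratio 1.57.

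**Figure D2:**
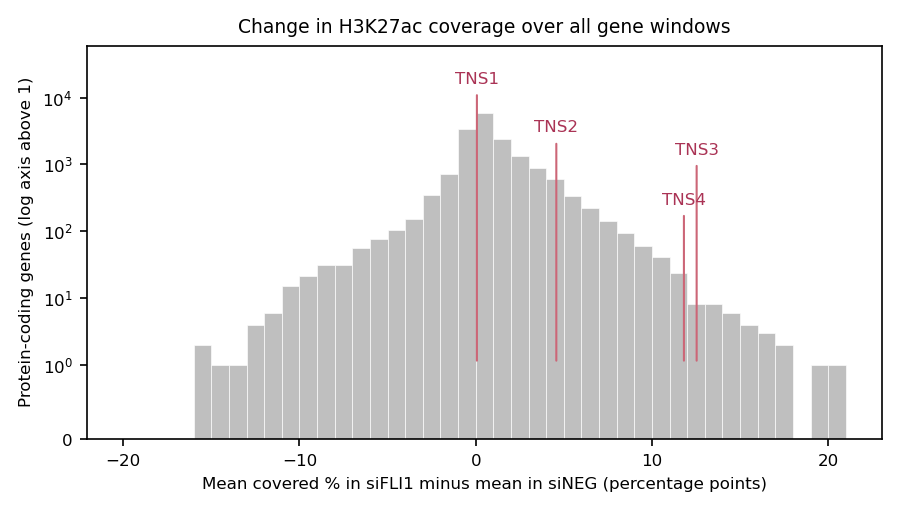
Number of protein-coding genes (y axis, logarithmic above 1) by the change in mean H3K27ac coverage of the gene window, siFLI1 minus siNEG, in percentage points (x axis, bins of 1). Lines mark the tensins: TNS3 at 12.5 and TNS4 at 11.8 stand in the right tail, TNS2 is at 4.57 and TNS1 at 0.07. Of 16912 genes, 1 lies beyond the right edge.

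The H3K27ac lists merged into 55 regions in the TNS3 window. Of these, 15 (27.3%) were gained and 0 were lost, 8 were in all 4 lists and 32 had another pattern. Over the genome 8.19% of 90572 merged H3K27ac regions counted as gained, 4.86% as lost and 25.1% stood in each of the 4 lists. In the other windows, 4 of 31 regions were gained and 3 lost at TNS1, 1 of 31 gained and 1 lost at TNS2, and 4 of 32 gained and 1 lost at TNS4. At least 15 gained regions occurred in 4 of 20005 genes (0.02%), TNS3 included, and in 3 of the 795 genes (0.377%) whose window is as long as that of TNS3 or longer. At least 1 gained region lay in the windows of 38% of genes and at a start of 6.02%, and at least 1 lost region in the windows of 22.9% and at a start of 2.04%. All 4 tensins had a gained region in the window, TNS1 and TNS3 had one at a start, and TNS1 and TNS2 had a lost one at a start. The count at TNS3 became 37 when siFLI1 replicate 1 was left out and 29 when replicate 2 was, since a region then needs fewer lists to be called, and it was 18 and 15 without siNEG replicates 1 and 2. For the 3 paralogues together, 9 gained regions became 19 and 25 without siFLI1 replicates 1 and 2 and 14 without either siNEG replicate, and 5 lost regions became 16 and 18 without siNEG replicates 1 and 2. When a call also required that the other arm had no peak within 1 kb, TNS3 still had 15 gained regions, but the paralogues went from 9 to 3 gained (2 at TNS1, 1 at TNS4) and from 5 to 3 lost, all at TNS1.

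Regions that siNEG cells already held also covered more bases. The 15 gained regions covered 0 kb in siNEG and 21.8 kb in siFLI1 on average. The 8 regions in all lists went from 15.5 kb to 33.4 kb, and the 32 others from 1.66 kb to 13.1 kb. All 8 covered more bases in both siFLI1 libraries than in both siNEG libraries, which was so for 35.4% of the 22724 such regions in the genome, with 21.3% narrower. At TNS4, 8 of 10 regions in all lists covered more bases in this way and none fewer, and their mean went from 23.4 kb to 34.6 kb. The 4 gained regions of TNS4 added 1.59 kb. The difference at TNS4 thus lay mostly in regions that siNEG cells already held, whereas at TNS3 gained regions and regions in all lists both contributed.

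Of the 15 gained regions of TNS3, 4 lay within 1 kb of a TNS3 start, 7 elsewhere in the gene and 4 outside it. Their fold enrichment ranged from 3.44 to 14.6 in siFLI1 replicate 1 and from 3.30 to 14.4 in replicate 2. The strongest lay at the start of transcript TNS3-215 (chr7:47379553-47381517), with 14.6 and 14.4, above 94% and 93.5% of the peaks in their lists. It was followed by a region upstream of the gene (chr7:47603622-47606441) with 14.4 and 13.4. Its neighbour at chr7:47599931-47603132 had 11.5 and 10.1. A region at the start of TNS3-203 (chr7:47481126-47483190) had 9.86 and 8.12. The next, chr7:47591193-47592838, 8635 bp upstream of the outermost start, had 6.24 and 7.93. These 5 were absent from both siNEG lists, and each ranked above 71.4% or more of the peaks in both siFLI1 lists.

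**Figure D3:**
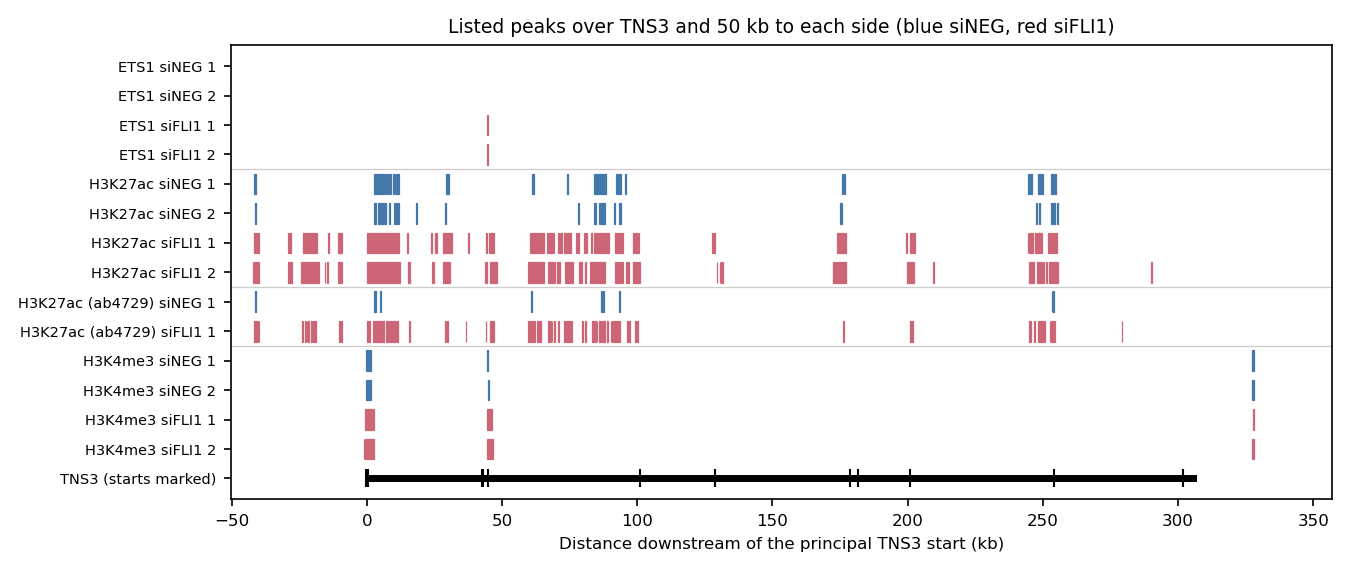
Listed peaks over TNS3 and 50 kb to each side, by library (rows), against the distance downstream of the principal TNS3 start in kb (x axis, negative values upstream). Bars are peaks, with a thin outline so that narrow ones stay visible, in blue for siNEG and red for siFLI1, and ticks on the black gene line are annotated starts. ETS1 bars appear only in the siFLI1 rows, 44.8 kb downstream, and the H3K27ac rows of siFLI1 hold more and wider bars than those of siNEG.

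The ab4729 pair, which has no replicates, was read as a separate view of the same mark. Its lists covered 0.81% of the TNS3 window in siNEG and 9.04% in siFLI1, 4.08% and 9.11% at TNS4, 3.17% and 7.25% at TNS2, and 0.10% and 1.27% at TNS1. All 4 windows were higher in siFLI1, as were 84.6% of the 15932 gene windows with a peak in this pair, whose siFLI1 list was longer, with 51663 peaks against 32738. In this pair 62 of 71 merged regions of the TNS3 window were in the siFLI1 list alone and 0 in the siNEG list alone, against 49.2% and 14.6% of all its regions. Of the 15 gained TNS3 regions, 12 (80%) were held by the siFLI1 list of this pair alone and 3 by neither list. Over all 7415 gained regions the share held by the siFLI1 list alone was 31.6%. For the gained regions of the paralogues these counts were 2 of 4 at TNS1, 0 of 1 at TNS2 and 0 of 4 at TNS4. None of the 5 lost regions of the paralogues was held by either ab4729 list.

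The ETS1 region of TNS3 lay in a stretch without listed H3K27ac in siNEG cells. The nearest H3K27ac peak was 14175 and 15184 bp away in the siNEG libraries, and 98 and 141 bp away in siFLI1. In the ab4729 pair the distances were 15842 and 331 bp. Of the 1190 gained ETS1 regions, 77.2% overlapped H3K27ac in both siNEG lists, 6.22% had none within 10 kb in either, and 5.38% were as far from it as the region of TNS3 in both. Only 14 (1.18%), that of TNS3 among them, had no siNEG H3K27ac within 10 kb and siFLI1 H3K27ac within 1 kb in both lists. The ETS1 region of TNS4 stood in the opposite setting: it overlapped H3K27ac in all 4 lists and in both ab4729 lists, within a region (chr17:40484835-40488869) whose fold enrichment was 5.38 and 7.63 in siNEG and 14.2 and 9.36 in siFLI1. The region at SPRYD3 overlapped H3K27ac in 3 of the 4 lists. It also lay wholly inside an H3K4me3 peak in each of the 4 H3K4me3 lists. The fold enrichment of that peak was 47.5 and 43.1 in siNEG and 21.5 and 23.98 in siFLI1. The merged H3K4me3 region there covered 2921 and 3304 bp in siNEG and 2425 and 2124 bp in siFLI1. At SPRYD3 both H3K4me3 measures were thus lower in siFLI1, without overlap.

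Around the internal start of TNS3, acetylation appeared on both sides of the ETS1 region. A gained region downstream of it (chr7:47534744-47536844) had 5.68 and 6.41 in siFLI1, and a gained region upstream (chr7:47537671-47538315) had 4.22 and 3.67. H3K4me3 was already present at this start in siNEG, as narrow peaks of 325 and 350 bp with fold enrichments of 3.71 and 5.48, and an overlap with H3K4me3 in both siNEG lists was found for 93.4% of gained ETS1 regions. In siFLI1 they measured 1804 and 2210 bp with 6.78 and 11.3. The siNEG widths lay close to 275 bp, the shortest peak of each H3K4me3 list, where the siNEG medians were 1843 and 1716 bp. The ratio of the mean widths, 5.95, therefore rests on a small base. Of the 12984 H3K4me3 regions held by all lists, 4, this one included, had a ratio as large. Of these regions 17.3% were wider and 37.2% narrower in both siFLI1 lists, so wider regions were the less common kind.

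**Figure D4:**
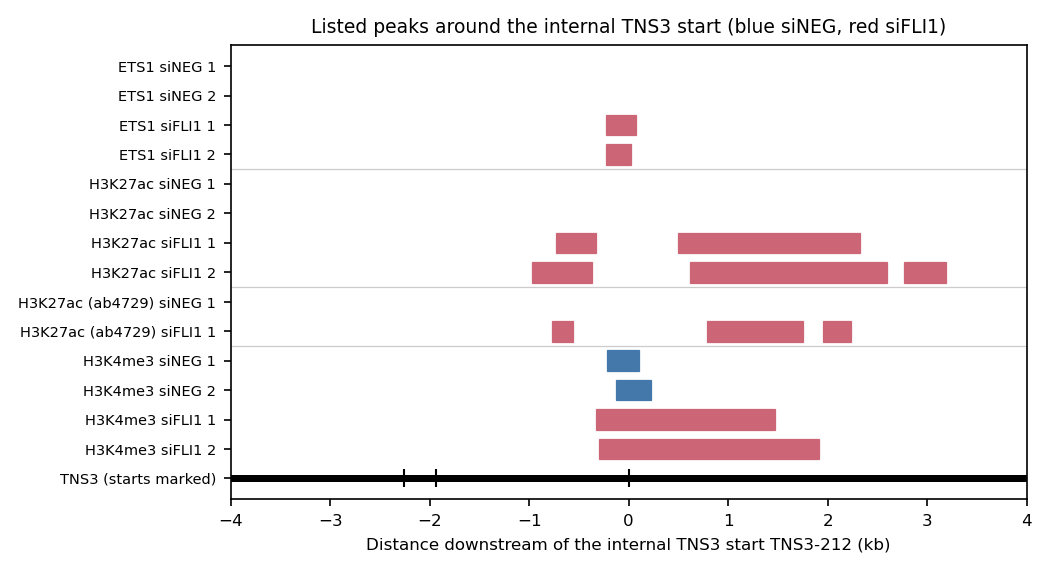
Listed peaks within 4 kb of the internal start TNS3-212, by library (rows), against the distance downstream of that start in kb (x axis), blue for siNEG and red for siFLI1. The ETS1 bars of siFLI1 sit on the start, between 2 blocks of siFLI1 H3K27ac that have no siNEG counterpart. The H3K4me3 bars of siNEG measure 325 and 350 bp and those of siFLI1 1804 and 2210 bp.

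The principal promoter of TNS3 carried H3K4me3 in all 4 lists (chr7:47579513-47582882). Its peaks measured 2113 and 1930 bp in siNEG and 3370 and 3098 bp in siFLI1, a ratio of the means of 1.60 that 3.14% of H3K4me3 regions in all lists reached. The fold enrichment was 18.6 and 13.5 in siNEG, above 48.7% and 46.3% of the peaks in those lists, and 46.0 and 41.9 in siFLI1, above 70.1% and 65.7%. No H3K27ac peak lay within 1 kb of the principal start in siNEG. In siFLI1 peaks reached that far in both libraries. In replicate 1 it was the edge of a wide peak whose summit lay 4962 bp inside the gene, where both siNEG libraries had their summits too, so that its fold enrichment of 10.2 does not measure the start (siNEG summits 6.89 and 9.13). Replicate 2 had a separate peak near the start, with its summit 1086 bp away and a fold enrichment of 3.98. The ab4729 siFLI1 list had one with its summit 168 bp away and 7.16, and the ab4729 siNEG list had none. These peaks fall in a wide region (chr7:47569866-47582160) in which listed peaks covered 6576 and 5428 bp in siNEG and 12083 and 11828 bp in siFLI1. No ETS1 peak was listed at this promoter in any of the 4 libraries.

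The other TNS3 starts fell into several patterns. The region at TNS3-213 and TNS3-214 (chr7:47326980-47330125) was in all lists, with fold enrichments of 5.15 and 4.62 in siNEG and 9.44 and 9.89 in siFLI1. The starts TNS3-203 and TNS3-215, listed above among the gained regions, had no H3K4me3 peak in any library. At TNS3-202, 3 small H3K27ac regions were each held by a single siFLI1 list. So was 1 at TNS3-215 with 3.02 and, for H3K4me3, 1 at TNS3-208 with 3.88, both in replicate 2. The starts TNS3-204, TNS3-206, TNS3-209 and TNS3-211 had no listed peak of any antibody within 1 kb.

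At TNS1 the promoter mark was narrower in siFLI1. H3K4me3 stood at the start of TNS1-220, 7.4 kb upstream of the principal start (chr2:218008193-218011858), with fold enrichments of 32.1 and 28.7 in siNEG and 21.8 and 19.3 in siFLI1. The peaks covered 3276 and 3461 bp in siNEG and 2146 and 2500 bp in siFLI1, and the ratio of 0.69 was exceeded or equalled by 96.1% of H3K4me3 regions in all lists. The principal start (TNS1-223) had no H3K4me3 peak in any library. H3K27ac within 1 kb of the principal start was listed in both siFLI1 libraries, with fold enrichments of 3.53 and 3.54, and in the ab4729 siFLI1 list with 6.61, but in no siNEG list. The merged region there (chr2:218003221-218004834) also held a peak of siNEG replicate 2, with 3.27, beyond that distance.

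Of the 3 lost H3K27ac regions of TNS1, the largest lay in an intron upstream of that start (chr2:218013891-218017548), with 4.99 and 8.22 in siNEG and no peak in siFLI1. It contains the only run of at least 4 GGAA units in the TNS1 window, 13 units in a row, shown with flanking bases and with the repeat in capitals.
TNS1 intronic GGAA repeat, chr2:218014847-218014946, hg38, plus strand: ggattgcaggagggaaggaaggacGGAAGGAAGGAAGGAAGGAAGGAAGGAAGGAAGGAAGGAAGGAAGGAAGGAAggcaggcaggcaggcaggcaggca
Among all H3K27ac regions 0.879% hold a run of at least 4 units, among lost regions 1.86%, among gained regions 0.121% and among those in all lists 2.51%. Another lost region of TNS1 lay at chr2:217936439-217937235, on the start of TNS1-206, with 5.08 and 3.78. Within 1 kb of that start the ab4729 pair went the other way, with no peak in siNEG and 408 bp at a fold enrichment of 5.30 in siFLI1. The third was at chr2:218025430-218026053 with 4.12 and 4.78.

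The 4 gained regions of TNS1 were 536 to 968 bp wide, and all lay inside the gene. The strongest, within 1 kb of the start of TNS1-215 (chr2:217858902-217859437), had 4.82 and 5.91 in siFLI1, and the ab4729 siFLI1 list held a peak there with 5.91. The intronic ones had 4.63 and 4.07 (chr2:217849444-217850411), 3.50 and 5.52 (chr2:217928105-217928806), and 3.47 and 4.48 (chr2:217851414-217852081). A peak of siNEG replicate 1 stood 285 bp from the first of these and 137 bp from the last. A further 5 regions within 1 kb of TNS1 starts were each held by a single list, 2 by siFLI1 replicate 2, at TNS1-218 with 4.57 and at TNS1-202 with 4.35. Those at TNS1-202, with 4.02, and at TNS1-206, with 3.39, were held by siNEG replicate 2, and that at TNS1-220, with 3.44, by siNEG replicate 1. Single-list regions at TNS1 starts thus came from both arms.

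A GGAA repeat also lay in the TNS4 window, within acetylation listed in both arms. The run of 14 units, followed by runs of 6 and 4, is upstream of TNS4 at chr17:40539144-40539199, within a region held by all lists (chr17:40536848-40544762). That region covered 6670 and 5356 bp in siNEG and 6518 and 6498 bp in siFLI1, which overlap. Within it, the peaks next to the repeat, with summits between bases 40538284 and 40538423, were lower in siFLI1 without overlap: the fold enrichment was 12.6 and 9.49 in siNEG (66 and 53 tags) and 8.21 and 6.06 in siFLI1 (43 and 42 tags). In the ab4729 pair the peak there had 6.26 in siNEG and 5.04 in siFLI1, with heights of 18 and 17 tags, and the siFLI1 list held a further peak with 5.57 on the other side of the repeat. Farther from the repeat, the peaks with summits between bases 40542706 and 40543152 had 9.004 and 6.23 in siNEG and 8.32 and 9.81 in siFLI1, which overlap. A further run of 5 units lies inside TNS4, 1584 bp from the nearest H3K27ac region. In the TNS3 window the only run of at least 4 units had 5 units and lay 1802 bp from the nearest H3K27ac region, and the TNS2 window had none.

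TNS2 carried H3K27ac over its principal start (TNS2-201) in both arms, whereas H3K4me3 had no peak within 1 kb of that start in any of the 4 libraries. H3K4me3 stood 3.1 kb upstream and 4.0 kb downstream of it. At the start of TNS2-203 (chr12:53046277-53048043) it covered 1484 and 1676 bp in siNEG and 1558 and 1483 bp in siFLI1, which overlap, with fold enrichments of 11.3, 15.2, 14.7 and 22.3. At TNS2-216 (chr12:53053477-53054586) it covered 1110 and 1001 bp against 704 and 968 bp, with 38.2 and 32.2 in siNEG and 16.7 and 28.4 in siFLI1, so that both siFLI1 peaks were the narrower. H3K27ac over the principal start (chr12:53046403-53050651) was in all lists, at 3987 and 2725 bp against 4083 and 3941 bp. The antisense gene TNS2-AS1 overlaps TNS2, and peaks carry no strand. Of the 9 H3K27ac regions in all lists, 3 (against 35.4% in the genome) covered more bases in both siFLI1 libraries, and these lay outside TNS2. A single one, also outside the gene (chr12:53013029-53014850), covered fewer, at 839 and 1378 bp in siNEG and 629 and 505 bp in siFLI1. The H3K27ac region at IGFBP6 (chr12:53096876-53099538), a secreted binding protein of insulin-like growth factors, covered 1376 and 1393 bp in siNEG and 2652 and 2560 bp in siFLI1. At SPRYD3 (chr12:53078303-53080204) the region went from 351 and 353 bp to 1902 and 803 bp, and the third (chr12:53068542-53073512) from 2834 and 3683 bp to 4893 and 4690 bp. The lost H3K27ac region of TNS2, at the start of TNS2-204 (chr12:53050683-53051326), had 3.75 and 4.89 in siNEG. Peaks of both siFLI1 lists ended 52 and 340 bp from it, so it adjoins the region over the principal start. The gained region (chr12:53067445-53068473) lay outside the gene with 4.45 and 3.57, and siNEG peaks stood 1618 and 620 bp away. Near TNS2-216 a region in all lists (chr12:53054155-53055152) had 6.74 and 4.73 in siNEG and 3.398 and 5.85 in siFLI1, which overlap, and another (chr12:53052690-53053175) was in siFLI1 replicate 2 only, with 5.01.

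TNS4 had no H3K4me3 peak in its gene body in any library. The H3K4me3 of its window lay at IGFBP4 (chr17:40442422-40447481), which covered 3285 and 3848 bp in siNEG and 4917 and 4720 bp in siFLI1. H3K27ac covered 21.2% and 25.2% of the TNS4 gene body in siNEG and 43.1% and 45.7% in siFLI1, without overlap. Within 1 kb of a TNS4 start, 1 small region was listed (chr17:40480743-40481241), in siNEG replicate 2 and siFLI1 replicate 2 only. The gained regions of TNS4 were weak. Those in introns had fold enrichments of 3.71 and 3.91 (chr17:40483234-40484332) and of 5.34 and 3.46 (chr17:40489074-40489506). Those outside the gene had 3.62 and 5.49 (chr17:40462379-40462810) and 4.30 and 3.999 (chr17:40512345-40512683). Its lost region, also outside the gene (chr17:40473174-40473705), had 4.60 and 3.23 in siNEG. Apart from the last of the gained ones, each of these regions had a peak of the other arm within 1 kb. The acetylation of TNS4 was thus intronic and flanking, with neither promoter mark at the gene's principal start.

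**Figure D5:**
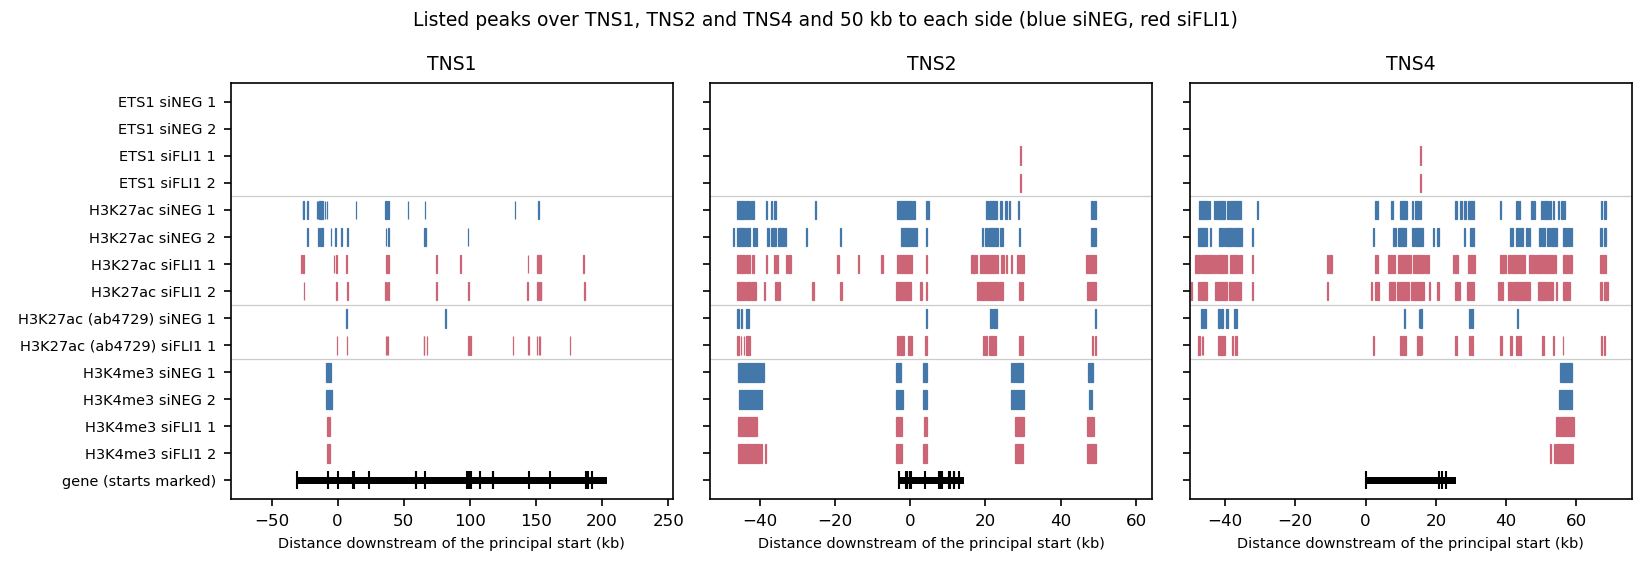
Listed peaks over TNS1, TNS2 and TNS4 and 50 kb to each side, by library (rows, the same order in each panel), against the distance downstream of each principal start in kb (x axes of different length), blue for siNEG and red for siFLI1. TNS1 holds few and narrow H3K27ac bars in both arms, and TNS4 has H3K27ac bars but no H3K4me3 bars over its gene.

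No H3K4me3 region was gained or lost at any tensin, where 2.17% of 20727 H3K4me3 regions were gained, 2.83% lost and 62.6% in all lists over the genome. Of the 15 H3K4me3 regions in the 4 windows, 10 were in all lists. By coverage of the window, H3K4me3 went from 0.74% and 0.69% to 1.39% and 1.53% at TNS3, without overlap. In the TNS4 window it went from 2.61% and 3.06% to 3.91% and 4.29%, also without overlap. None of that lay in the TNS4 gene body, and the region in all lists was at IGFBP4. At TNS1 H3K4me3 coverage was 0.98% and 1.16% against 0.64% and 0.75%, also without overlap. In the TNS2 window the arms overlapped, where the region at IGFBP6 had a ratio of mean covered bases of 2.1 and that at SPRYD3 0.73. Each of the 3 separations gave an exact permutation p = 0.33 with 2 libraries per arm. Among 16511 genes with a listed H3K4me3 peak, coverage was higher in both siFLI1 libraries for 14.7% and lower for 49.5%, and it was at least 2-fold higher, as at TNS3 with a ratio of 2.04, for 2.07%.

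The adhesion partners of tensins were read in the same way, from 20 genes grouped by role. H3K27ac coverage was higher in both siFLI1 libraries for 14 of 20 (70%), against 49.9% of all genes, and lower for 3. The median difference over the 20 was 1.82 percentage points, against 0.47 for all genes. Among 7 actin linkers, 6 were higher, with FLNA (filamin A, an actin crosslinker) going from 17.4% and 19.0% to 28.1% and 26.1%. Another was TLN1 (talin 1, which activates integrins), from 7.99% and 7.55% to 14.8% and 14.2%. Of 5 integrins, 3 were higher, 1 overlapped and ITGB5 was lower, with a ratio of 0.66. Of 8 scaffold and signalling genes, 5 were higher, among them SRC, the tyrosine kinase, from 5.80% and 4.73% to 12.9% and 11.7%. PXN (paxillin, an adhesion scaffold) and ILK were lower, PXN from 50.2% and 50.5% to 43.1% and 41.7%.

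Gained ETS1 regions lay at starts of ITGB1 (the beta-1 integrin chain), ZYX (zyxin), LIMS1 (PINCH-1) and ARHGAP35, and in the window of FLNA. That is 4 of 20 partners at a start (1 of 4 tensins), where 6.01% of all genes had one. None of these 5 partners reached the ratio of TNS3 in H3K27ac coverage, 3.97. A partner without a gained or lost ETS1 region had a higher ratio, from a low siNEG level. ITGB3, the beta-3 integrin chain, went from 0.41% and 0.34% to 2.29% and 2.52%, a ratio of 6.38, with 2 gained H3K27ac regions. Its difference was 2.03 percentage points, against 12.5 at TNS3, and neither histone mark was listed within 1 kb of its start. Among the 5, ITGB1 overlapped between arms with a ratio of 0.93, ZYX reached 1.498, LIMS1 1.18, FLNA 1.49, and ARHGAP35 overlapped at 1.05. Of the 1198 genes with a gained ETS1 region at a start and a listed H3K27ac peak, 8.26% were at least 2-fold and 2.59% at least 3-fold higher without overlap, TNS3 among them, against 12.4% and 6.25% of all genes. The 2 sets were not matched for siNEG coverage, on which a ratio depends. Of gained ETS1 regions, 77.2% overlapped H3K27ac in both siNEG lists, so these shares do not compare like genes. A gained H3K27ac region lay within 1 kb of a start of 6 of 20 partners (ITGA5, ITGB5, ACTN1, FLNA, PARVA and STARD13), against 6.02% of all genes, and a lost one at 3 (ITGA5, ITGB5 and PXN), against 2.04%. ITGA5 and ITGB5 thus had both. In the window, a gained H3K4me3 region was found for 2 of 20 partners (VCL and FLNA), against 5.11% of all genes, and a lost one for 3 (TLN1, FLNA and ARHGAP35), against 9.41%. All these shares are over every protein-coding gene. H3K4me3 lay at a start of 19 of 20 partners in both siNEG lists, against 63.2% of all genes, and the partner counts were not set against such genes alone.

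The 5 protein-coding genes most like TNS3 over the 14 lists were SUSD1, PTGES, TMEM212, PPP1R3C and ENSG00000281613, by Euclidean distance of log2 (covered percent + 0.1), from 1.78 to 2.17. Mean H3K27ac coverage went from 5.57% to 12.5% at SUSD1 and from 5.50% to 11.9% at PTGES. The other 3 lay between 4.22% and 8.19% in siNEG and between 9.63% and 16.1% in siFLI1. Only ENSG00000281613 among them had a gained ETS1 region. Of 20004 genes in this order, TNS4 had rank 2151, TNS1 rank 2392 and TNS2 rank 8745. These lists share their libraries, so the distances describe and do not test.

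The labelled cell type was read from marker genes in the siNEG lists. All 8 Ewing sarcoma markers (among them CD99, NR0B1 and NKX2-2) had H3K4me3 within 1 kb of a start in both siNEG libraries, as did 63.2% of all protein-coding genes, and none of 5 markers of other lineages did, although EPCAM and PECAM1 had H3K27ac there. EPCAM also had H3K4me3 there in siNEG replicate 1. The knockdown itself is not measured by these lists. After siFLI1, H3K27ac coverage was lower for 6 of the 8 Ewing sarcoma markers, for example CCND1 from 39.5% and 41.0% to 31.6% and 30.4%, and higher for none, against 15.6% and 49.9% of all genes. Of the 5 markers of other lineages, 1 was higher and 1 lower, PECAM1, from 6.52% and 6.27% to 1.38% and 1.74%. Lists of H3K27ac held 60027 to 65501 peaks and covered 58.6 to 69.2 Mb, with more in both siFLI1 libraries, and H3K4me3 lists held 18344 to 19720 peaks. With every H3K27ac list shortened to its 60027 strongest peaks, the difference at TNS3 was 12.3 percentage points and the count of gained regions 15.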

How the data were processed

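The deposited files are MACS2 narrowPeak lists, 1 per immunoprecipitated library. Per the submitters' processing notes, the authors used cutadapt 4.4, BWA 0.7.17, Picard 2.17.11 and MACS2 2.1.1 with hg38 (GRCh38) and dm6. How dm6 was used and which control each list had are not given in the sources used here. The columns deposited by the authors are a fold enrichment (a ratio to local background), −log10 p and −log10 q values, and a display score, which was not used. Depth per library is unknown, and lists show peaks past a threshold, not occupancy. ETS1 lists differ in their shortest peak (155 to 275 bp), which can change widths.

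Genes and starts came from GENCODE 44. Peaks of an antibody's 4 lists that overlapped by at least 1 bp were merged. A region in both siFLI1 and neither siNEG list is gained, and the opposite is lost. Covered percent of each window was compared by exact two-sided permutation over libraries (Python 3.11.15, SciPy 1.17.1, NumPy 2.4.6). Sequences were read with pysam 0.24.0, and figures were drawn with matplotlib 3.10.9. Tag heights were solved from fold and −log10 p. The scripts were tested on simulated data.

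The text names every ETS1 region, regions within 1 kb of tensin starts (those held by 1 list by their start alone), the 5 strongest gained and 5 strongest lost H3K27ac regions per gene, the adhesion partners with such regions, and the 5 genes nearest to TNS3 in coverage. FLNA, TLN1, SRC, ITGB3 and CCND1 values, regions of neighbouring genes and the single peaks around the TNS4 repeat were chosen as examples after their values were seen. Members and lists were chosen with earlier results of these data known. Alternatives were other windows, stricter q values, equal list lengths, a wider gap for absence, each library left out, a replicate block and the ab4729 pair.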

Additional observations from a re-analysis of the deposited data

How the results depend on the processing

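Differences in H3K27ac coverage, siFLI1 minus siNEG in percentage points, kept their sign under all 11 alternatives for TNS3 (10.9 to 13.5), TNS4 (9.18 to 21.2), TNS3 minus TNS1 (10.4 to 13.5) and TNS3 minus TNS2 (5.84 to 15.4). Among these alternatives, the replicate block cannot change a difference. TNS2 (4.57) reversed to -2.00 over the gene body alone. TNS1 (0.07) became -0.024 with lists of equal length, 0.44 with 100 kb flanks and 0.43 with the ab4729 pair added. It ranged from -0.28 to 0.41 with single libraries left out. TNS3 minus TNS4 (0.72) became -0.23 with −log10 q of at least 5, -7.77 over gene bodies and -0.47 with 10 kb flanks, and ranged from -2.17 to 3.61 with single libraries left out. The cause was not tested.

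The ETS1 count at TNS3 went from 1 to 0 with lists of equal length. Gained H3K27ac regions of TNS1, TNS2 and TNS4 together (9) became 5 with −log10 q of at least 5, 19 with 100 kb flanks and 3 where absence needs no peak within 1 kb, which also took the lost ones from 5 to 3. With single libraries left out, gained regions numbered 15 to 37 at TNS3 and 14 to 25 at the paralogues, lost ones 0 to 1 and 5 to 18, and H3K4me3 regions 0 to 4 gained and 0 to 2 lost. Fewer lists are then needed for a call.

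Replicate numbers did not pair the libraries (r of same-numbered deviations 0.01 for H3K27ac and 0.05 for H3K4me3), and the ETS1 lists, with 1 sample in siFLI1, cannot show it. The replicate block leaves each difference the same by construction (12.5 at TNS3, 11.8 at TNS4, 4.57 at TNS2 and 0.07 at TNS1), and the smallest exact p became 0.5. No alternative can pass a threshold with 2 libraries per arm, and the unknown depth limits what an absent peak shows.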
